A study of Mus musculus with 12 samples.

Results

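The genes described here are 10 components of the AMPA receptor, namely the receptor subunit genes Gria1, Gria2, Gria3 and Gria4 and the auxiliary protein genes Cacng2, Cacng3, Cacng8, Shisa9, Cnih2 and Cnih3. They were chosen by symbol from the 19775 genes of a brain RNA-seq table, and all 10 had a value in every mouse and passed the filter on low values. The study sequenced whole-brain RNA from 12 male C57BL/6N mice at about postnatal day 120, 4 of each Slc6a20a genotype: wild type (WT), heterozygous (HT) and homozygous (HM). The mutant mice lacked exon 3 of Slc6a20a on 1 or both alleles in all cells of the body, and crosses of heterozygous parents gave all 3 genotypes. Slc6a20a encodes a transporter of proline and glycine, and glycine is a co-agonist of the NMDA receptor, the other main ionotropic glutamate receptor of excitatory synapses. The values are normalized counts, that is, read counts estimated for each gene and scaled so that the libraries can be compared.

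AMPA receptors carry most of the fast excitatory current in the brain. Each receptor is built from 4 pore-forming subunits drawn from GluA1 to GluA4, which Gria1 to Gria4 encode. Transmembrane AMPA receptor regulatory proteins (TARPs, here Cacng2, Cacng3 and Cacng8), the Shisa family member CKAMP44 (Shisa9) and the cornichons (Cnih2 and Cnih3) bind the subunits and set their traffic to the surface, their gating and their desensitization.

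The pore of the receptor holds the codon of the Q/R site, shown here because it is what most clearly separates Gria2 from its 3 relatives in function. In Gria2 RNA an adenosine of this codon is edited by the deaminase Adarb1, so that arginine replaces the glutamine of the genome and the channel passes little calcium. The stretches of 60 bases are read from GRCm38 with the GENCODE M21 annotation, 5′ to 3′ on the strand of the gene, and the capitals mark the codon of the site. The Gria1 stretch is in exon 11 of 16 of Gria1-201 on the plus strand (chr11:57243058-57243117), that of Gria2 in exon 11 of 16 of Gria2-201 on the minus strand (chr3:80706890-80706949), that of Gria3 in exon 11 of 16 of Gria3-201 on the plus strand (chrX:41610229-41610288) and that of Gria4 in exon 12 of 17 of Gria4-201 on the minus strand (chr9:4464116-4464175).
Gria1: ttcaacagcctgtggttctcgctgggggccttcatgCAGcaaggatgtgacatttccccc
Gria2: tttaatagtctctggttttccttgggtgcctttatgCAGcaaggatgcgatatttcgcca
Gria3: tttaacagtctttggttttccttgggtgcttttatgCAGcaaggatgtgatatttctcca
Gria4: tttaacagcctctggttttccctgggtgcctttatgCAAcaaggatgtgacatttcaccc

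All 4 genes encode glutamine at this codon in the genome, with CAA in Gria4 and CAG in the others. Over the 60 bases, Gria3 differed from Gria2 at 5 positions, Gria4 at 8 and Gria1 at 13. The normalized counts sum all RNA of a gene, edited or not, so they hold no measure of editing. Adarb1 itself had 11370 normalized counts in WT mice, 11247 in HT mice and 11360 in HM mice (means, n = 4 each), and its unadjusted p by limma was 0.772 for HT against WT and 0.998 for HM against WT.

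The genotype labels were checked against the targeted gene. Normalized counts of Slc6a20a were 679.3 ± 70.1 for WT, 345 ± 29.1 for HT and 64.5 ± 9.95 for HM (SD, n = 4 each), and the 3 genotypes did not overlap. Normalized counts summed to between 33284951 and 33748623 per mouse, but since they had been scaled to a common level, these sums do not give the sequencing depth, which is unknown here. Marker lists of excitatory neurons, interneurons and oligodendrocytes were present in every mouse. Their mean level, centred on each gene's mean over all mice, stayed between -0.147 and 0.114 (log2) in all 12 mice. Although the tissue was labelled as whole brain, the markers most restricted to the cerebellum were near the lower limit: Pcp2 of Purkinje cells had at most 26.4 normalized counts in any mouse, and Fat2 and Cbln3 of granule cells had at most 28.7 and 24.5. Of the 8 genes of the cerebellar list 7 had a value, none was at 0, and their sum of 2339 to 2666 normalized counts came mainly from Cbln1, Car8 and Grm4, which are also used outside the cerebellum. Cacng2, which encodes the TARP stargazin and is known for its role in cerebellar granule cells, was therefore measured in tissue with little sign of those cells. Markers of the olfactory bulb differed with genotype, as given with the results for Cacng8.

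Per kilobase of exon, the cornichon gene Cnih2 had the highest level of the 10 genes and Shisa9 the lowest in WT mice. With the union of annotated exons as the length, WT mice had 4123 ± 295 normalized counts per kilobase for Cnih2, which encodes a cargo protein of the secretory pathway that stays with AMPA receptors at the synapse. The receptor subunits followed in part, with 2198 ± 61.8 for Gria1 and 1330 ± 112 for Gria2. In each of the 12 mice Cnih2 was above Gria1, Gria1 above Gria2 and Gria2 above the other 7 genes. Cacng3 (855.1 ± 48.1), Gria3 (802.8 ± 39.0), Cnih3 (763.1 ± 35.7) and Cacng8 (669.2 ± 19.0) came next, and the ranges of neighbours among these 4 overlapped over the 12 mice. Gria4 (545.8 ± 24.0) and Cacng2 (532.2 ± 21.4) were likewise not separated, and Shisa9 was last at 425.3 ± 7.67 normalized counts per kilobase (SD, n = 4 for each gene). Gria2, whose RNA is edited at the Q/R site, thus made up 27.2% ± 1.19 of the summed per-kilobase level of the 4 Gria genes in WT mice. The others made up 45.1% ± 1.08 (Gria1), 16.5% ± 0.571 (Gria3) and 11.2% ± 0.467 (Gria4; SD, n = 4). The shares depended on the length used more than on genotype. With the longest coding transcript as the length, Gria3 moved ahead of Cacng3 in all mice, and the WT shares became 36.6% for Gria1, 30.4% for Gria2, 23.3% for Gria3 and 9.67% for Gria4. In HT mice the shares by exon union were 46.0%, 27.2%, 16.1% and 10.8% for Gria1 to Gria4, and in HM mice 45.8%, 27.1%, 16.4% and 10.8%.

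**Figure D1:**
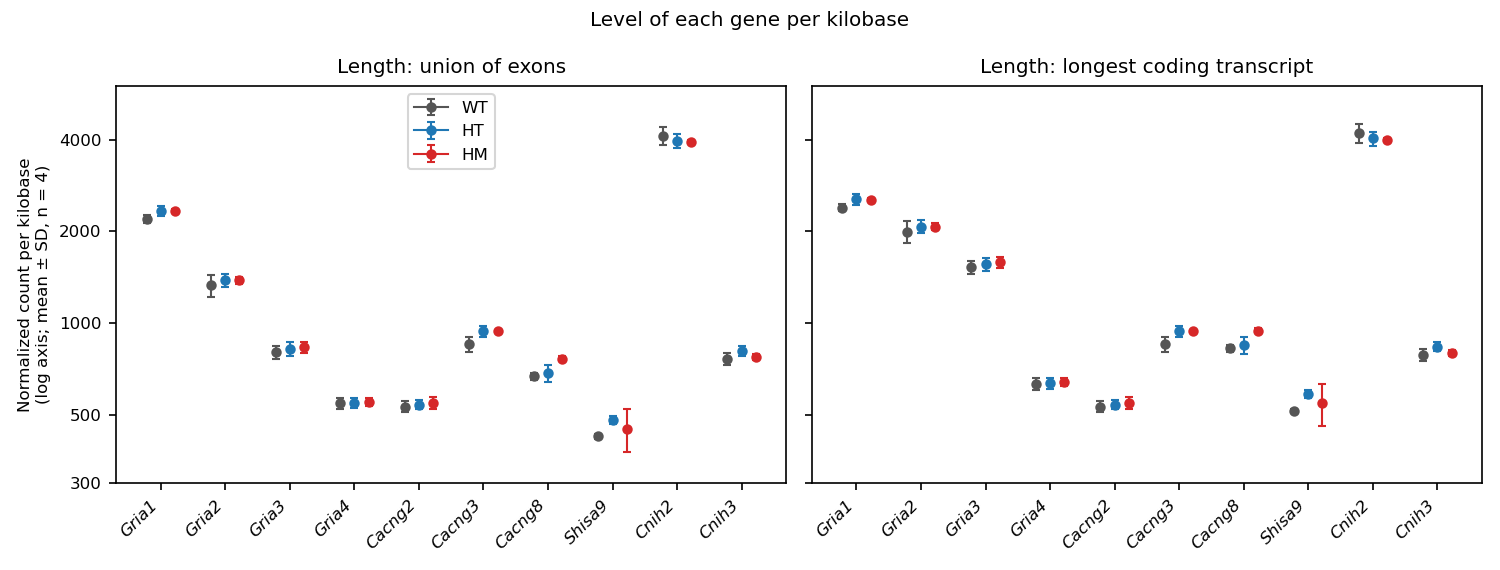
Normalized counts per kilobase (log axis) of the 10 genes by genotype, as mean ± SD over 4 mice, with the union of exons (left) or the longest coding transcript (right) as the length. Cnih2, Gria1 and Gria2 are the 3 highest by both lengths, while the place of Gria3 depends on the length.

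Against WT, the differences of the 10 genes were small and mostly positive, and none passed after adjustment over all genes by limma. The paper's own DESeq2 analysis of these mice, at an adjusted p under 0.05, listed Shisa9 as upregulated in HT mice. It also counted Cacng8 among the differentially expressed genes of HM mice. The tests here were limma fits of log2(normalized count + 1) to the 8 mice of a pair of genotypes, with Benjamini-Hochberg adjustment over all genes tested. A log2 fold change of 0.1 on this scale is a difference of about 7%. In HT mice, 9 of the 10 genes had a positive log2 fold change and 1 a negative one, from -0.06 to 0.18 with a median of 0.05, where the median of all genes tested was 0.0001. In HM mice, 9 were again positive and 1 negative, from -0.07 to 0.19 with a median of 0.06, beside -0.0003 for all genes. Both comparisons use the same 4 WT mice, so the directions in HT and HM mice are not independent of each other. Without WT replicate 1, the fold changes against WT became smaller in size in both mutant genotypes, except those of Gria4, Shisa9 and Cnih3. Gria2 in HT mice, for example, went to 0.011. Signs changed under some alternatives for Gria2, Gria4, Cacng2 and Cnih2 in HT mice and for Gria4, Shisa9 and Cnih3 in HM mice.

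Calls without adjustment fell on Gria1, Cacng3 and Shisa9 in HT mice and on Gria1, Cacng3 and Cacng8 in HM mice. For HT against WT, 3 of the 10 genes were higher and 0 lower at an unadjusted p under 0.05, where 3.16% of all genes tested were higher and 3.26% lower. After adjustment 0 of the 10 passed, as did 0.00555% of all genes, which is Slc6a20a alone. For HM against WT, 3 of 10 were higher and 0 lower without adjustment, beside 3.93% and 3.05% of all genes, and 0 of 10 passed with it, beside 0.0111% of all genes. For HM against HT, 1 of 10 (Cacng8) was higher and 0 lower without adjustment, beside 2.11% and 1.62%, and 0 of 10 passed with it, beside 0.00556%. Genotypes that did not overlap in any mouse were seen for 1 of the 10 genes in HT against WT, higher in HT, where the share of all genes was 1.82% higher and 1.91% lower. In HM against WT there were 3 such genes, all higher in HM, beside 2.41% and 1.81% of all genes. In HM against HT there was 1, again higher in HM, beside 1.24% and 1.14%. In bulk tissue, a higher level in the same cells and more cells of a type that holds the RNA cannot be told apart.

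**Figure D2:**
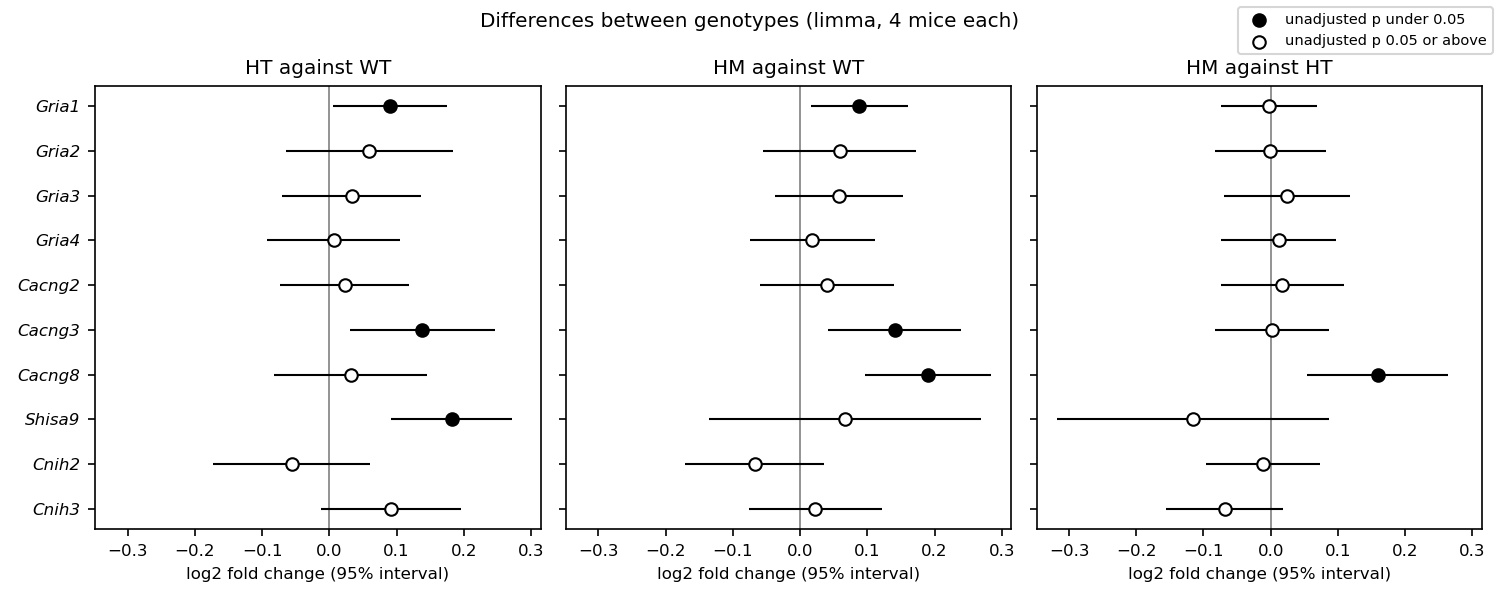
Log2 fold changes of the 10 genes between genotypes (points) with 95% intervals (lines), from limma fits of 4 against 4 mice; filled points have an unadjusted p under 0.05. Filled points are Gria1, Cacng3 and Shisa9 for HT against WT, Gria1, Cacng3 and Cacng8 for HM against WT, and Cacng8 for HM against HT.

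Gria1, the gene of the subunit GluA1 that is known for activity-dependent delivery to synapses, was about 6% above WT in both mutant genotypes. It lies on the plus strand of chromosome 11 from 57011387 to 57330244 in GRCm38. The WT mice had 12729, 13535, 13474 and 13387 normalized counts, the HT mice 14302, 14793, 14011 and 13470, and the HM mice 13950, 14372, 13948 and 14185. All HM mice were above all WT mice, while the lowest HT mouse fell among the WT mice. The log2 fold change was 0.09 for HT against WT (SE 0.04, 95% interval 0.0051 to 0.18, unadjusted p = 0.0395, adjusted p = 0.77, two-sided exact permutation p = 0.0857). For HM against WT it was also 0.09 (SE 0.03, 95% interval 0.02 to 0.16, unadjusted p = 0.0207, adjusted p = 0.67, exact permutation p = 0.0286, the smallest that 4 against 4 mice can give). HM and HT mice differed by -0.0023 (95% interval -0.07 to 0.07). The unadjusted call of limma in HT mice was lost on leaving out any 1 of 6 mice, WT replicate 1, 3 or 4 or HT replicate 1, 2 or 3, with log2 fold changes of 0.07 to 0.10 and p between 0.0507 and 0.118. The call in HM mice was lost without HM replicate 2, where the log2 fold change was 0.08 and the unadjusted p 0.0624. After quantile normalization neither call held, with an unadjusted p of 0.144 in HT mice and 0.0931 in HM mice, and both were lost as well with a variance prior that has no trend (0.088 and 0.0577). The call in HT mice was also lost after the GC and length correction (log2 fold change 0.0665, unadjusted p of 0.0805 by limma). It was lost with the labels' replicate number as a block (0.0596, fold change unchanged). A block for the start of the second number in each mouse's column name ended it too (log2 fold change 0.0611, unadjusted p of 0.123). The labels do not say what this number stands for, and its starts are spread unevenly over the genotypes.

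Gria2, Gria3 and Gria4 showed no difference between genotypes that passed even without adjustment. Gria2, the most abundant of the 10 by normalized count, ranged from 18631 to 22201 in WT mice, from 19990 to 22467 in HT mice and from 21024 to 22280 in HM mice. Its WT mice were spread most widely and enclosed most of the mutant values. On the log2 scale HT mice differed from WT by 0.06 (95% interval -0.06 to 0.18) and HM mice by 0.06 (95% interval -0.06 to 0.17), so differences of up to about these bounds are within the error of 4 mice. Both values rested on WT replicate 1, the lowest mouse, and without it they were 0.011 and 0.0102. Gria3, on the X chromosome and thus present in 1 copy in these males, ranged from 7399 to 8283 in WT mice, from 7540 to 8474 in HT mice and from 7868 to 8599 in HM mice, and the genotypes overlapped. Gria4, whose product is a fast subunit used by many interneurons, ranged from 3262 to 3629, from 3280 to 3615 and from 3369 to 3583 normalized counts. Its log2 fold changes of 0.0065 in HT mice (95% interval -0.09 to 0.11) and 0.02 in HM mice (95% interval -0.07 to 0.11) were the closest to 0 among the subunits.

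Relative to Gria2 in the same mouse, the other subunits overlapped between genotypes. The log2 ratio of Gria1 to Gria2 was -0.635 ± 0.089 in WT mice, -0.604 ± 0.07 in HT mice and -0.606 ± 0.044 in HM mice (SD, n = 4 each). The ratios of Gria3 to Gria2 (-1.38, -1.41 and -1.38 in WT, HT and HM mice) and of Gria4 to Gria2 (-2.58, -2.64 and -2.62) overlapped likewise. A ratio within a mouse is free of that library's scaling but is formed from counts that are not divided by length, so its size has no meaning between genes.

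**Figure D3:**
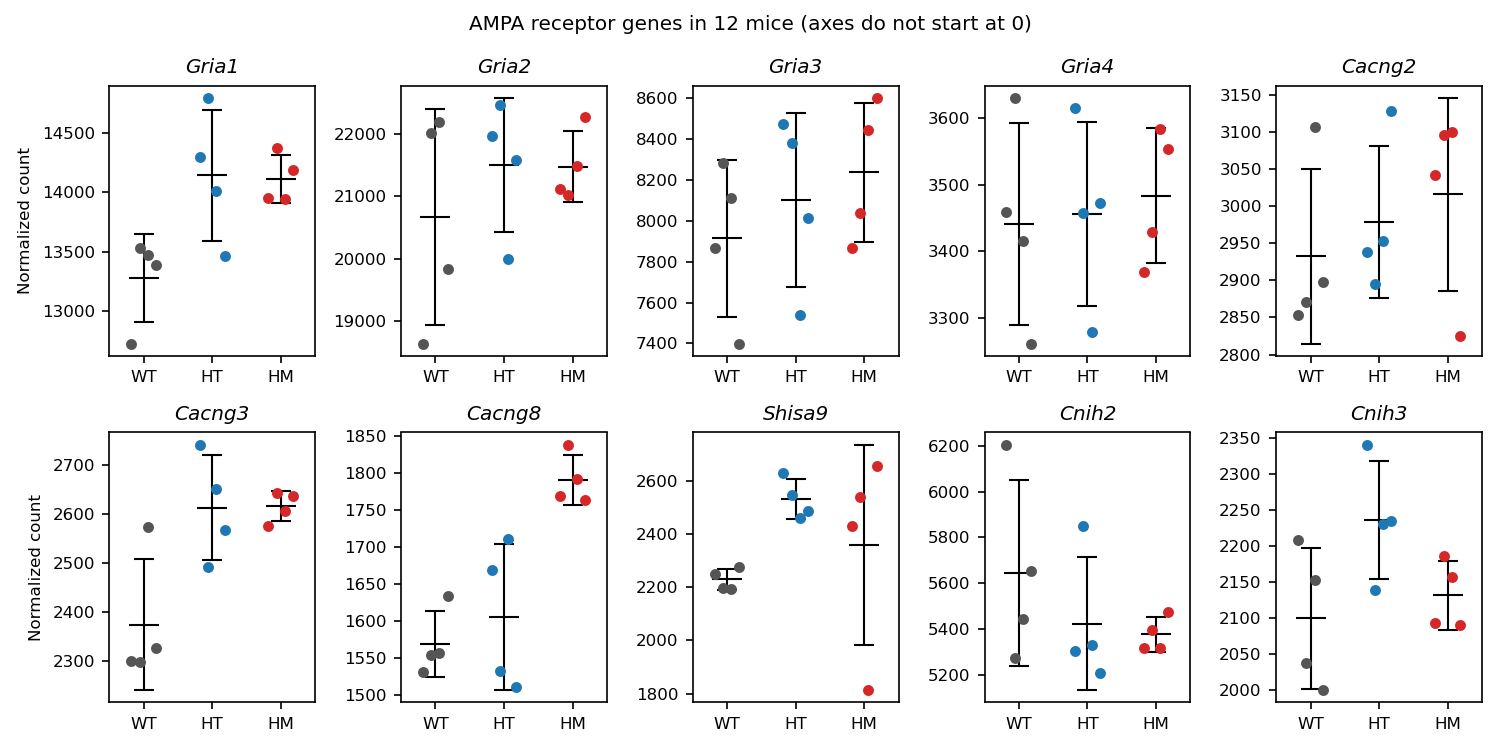
Normalized counts of the 10 genes in each mouse (points; vertical axes differ and do not start at 0), with the mean ± SD of 4 mice per genotype (black). All HM mice are above all WT mice for Gria1, Cacng3 and Cacng8, all HT mice are above all WT mice for Shisa9, and 1 HM mouse is low for Shisa9.

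Cacng8 was higher in HM mice than in both other genotypes. It encodes a TARP that is concentrated in the hippocampus and cortex, and it lies on the plus strand of chromosome 7 from 3390683 to 3415648. The WT mice had 1532, 1555, 1557 and 1634 normalized counts, the HT mice 1669, 1532, 1711 and 1511, and the HM mice 1769, 1838, 1792 and 1764. Every HM mouse was above every WT and HT mouse, whereas the HT mice spread around the WT mice, with 1 below them, 1 among them and 2 above them. The log2 fold change for HM against WT was 0.19 (SE 0.04, 95% interval 0.10 to 0.28, unadjusted p = 0.000737, adjusted p = 0.553, exact permutation p = 0.0286), a difference of 14.1%. Against HT mice it was 0.16 (SE 0.05, 95% interval 0.05 to 0.26, unadjusted p = 0.00608, adjusted p = 1.0, exact permutation p = 0.0286). HT and WT mice differed by 0.03 (95% interval -0.08 to 0.15). The unadjusted p for HM against WT was at most 0.00885 under every alternative, including each mouse left out in turn. The call against HT mice was lost when mice with a like start of the number in the column name formed a block. That block leaves 3 mice to set the difference (0.14, unadjusted p of 0.146 by limma).

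A list of 8 olfactory bulb markers moved in the same direction as Cacng8. Its mean level, centred on each gene's mean, ran from -0.47 to 0.38 (log2) in WT mice, from -0.74 to -0.16 in HT mice and from 0.006 to 0.87 in HM mice, so HM mice were above all HT mice and overlapped WT mice. All 8 markers were detected in every mouse, with summed normalized counts of 679.3 to 1040 for WT, 640.4 to 812.6 for HT and 944.9 to 1615 for HM. HM replicate 2 had the lowest value of the list among HM mice, 0.006, and the highest Cacng8 count, 1838. The list of 6 choroid plexus markers, all detected in every mouse, ran from 0.03 to 0.32 in WT mice, from -0.22 to 0.46 in HT mice and from -0.77 to 0.26 in HM mice, with sums of 15196 to 19688, 12451 to 20110 and 9816 to 17815 normalized counts. The part of these tissues in the differences of Cacng8, Cacng3, Gria1 and Shisa9 was not tested.

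**Figure D4:**
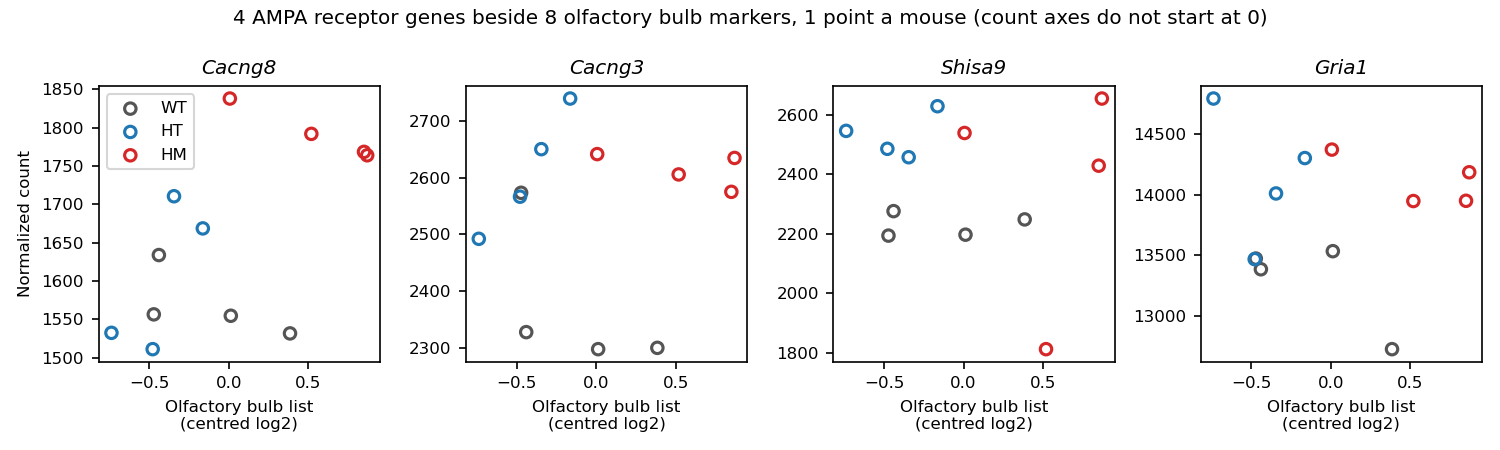
Normalized counts of Cacng8, Cacng3, Shisa9 and Gria1 (vertical axes, not starting at 0) against the mean centred log2 level of 8 olfactory bulb markers (horizontal axes), 1 point per mouse and coloured by genotype. HM replicate 2 has the highest Cacng8 count with an olfactory bulb value of 0.006, and the low HM mouse for Shisa9 has a value of 0.518.

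Cacng3, the gene of a further TARP of forebrain neurons, was about 10% above WT in both mutant genotypes. It lies on the plus strand of chromosome 7 from 122670492 to 122769393. The WT mice had 2300, 2297, 2574 and 2327 normalized counts, the HT mice 2740, 2492, 2651 and 2567, and the HM mice 2575, 2642, 2606 and 2635. A single WT mouse, replicate 3, stood apart from the other 3 WT mice and reached almost to the lowest HM mouse, at 2574 against 2575. For HT against WT the log2 fold change was 0.14 (SE 0.05, 95% interval 0.03 to 0.25, unadjusted p = 0.0161, adjusted p = 0.768, exact permutation p = 0.0857). For HM against WT it was 0.14 (SE 0.05, 95% interval 0.04 to 0.24, unadjusted p = 0.00917, adjusted p = 0.655, exact permutation p = 0.0286). HM and HT mice differed by 0.002 (95% interval -0.08 to 0.09). Without HT replicate 1 the fold change in HT mice was 0.12 and the unadjusted p by limma was 0.0527.

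Cacng2, the gene of stargazin, overlapped between all 3 genotypes. It ranged from 2854 to 3107 normalized counts in WT mice, from 2895 to 3129 in HT mice and from 2826 to 3101 in HM mice. On the log2 scale HT mice differed from WT by 0.02 (95% interval -0.07 to 0.12) and HM mice by 0.04 (95% interval -0.06 to 0.14). Within a mouse, the log2 ratio of Cacng8 to Cacng2 was -0.902 ± 0.071 in WT mice, -0.893 ± 0.119 in HT mice and -0.751 ± 0.051 in HM mice (SD, n = 4 each). The HM mice, from -0.791 to -0.68, were all above the WT mice, from -0.997 to -0.827. The ratio of Cacng3 to Cacng2 was -0.305 ± 0.023, -0.19 ± 0.079 and -0.205 ± 0.07 in the same order, and HM but not HT mice were separated from WT mice.

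Among the 10 genes, with all 8 mice compared, only Shisa9 had all HT mice above all WT mice. Its product, CKAMP44, slows the recovery of AMPA receptors from desensitization, and the gene lies on the plus strand of chromosome 16 from 11984113 to 12270902. The WT mice had 2249, 2198, 2194 and 2277 normalized counts, the HT mice 2629, 2546, 2458 and 2486, and the HM mice 2429, 2539, 1813 and 2655. The WT mice lay within a narrow range, 3 HM mice were above it, and HM replicate 3 was below every other mouse. For HT against WT the log2 fold change was 0.18 (SE 0.04, 95% interval 0.09 to 0.27, unadjusted p = 0.000723, adjusted p = 0.726, exact permutation p = 0.0286), a difference of 13.4%. For HM against WT it was 0.07 (SE 0.09, 95% interval -0.14 to 0.27, unadjusted p = 0.49, adjusted p = 0.914, exact permutation p = 0.714). Without HM replicate 3 the HM value became 0.19 with an unadjusted p of 0.00182 by limma, and the difference between HM and HT mice went from -0.12 (95% interval -0.32 to 0.09) to 0.006. Without HM replicate 4, the highest, the HM value against WT was 0.0046. In HM replicate 3 the interneuron list was at -0.147 (log2) and the excitatory neuron list at -0.037, each the lowest of all 12 mice. Its choroid plexus list was at 0.26 and its oligodendrocyte list at 0.08, each the highest of the HM mice. Whether these go with its low Shisa9 count was not tested.

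The cornichons Cnih2 and Cnih3, which promote exit of AMPA receptors from the endoplasmic reticulum, had differences of opposite sign that did not pass in the main fits. Cnih2 had 6203, 5274, 5445 and 5656 normalized counts in WT mice, 5306, 5851, 5334 and 5209 in HT mice and 5319, 5398, 5320 and 5476 in HM mice. It was the gene with a negative log2 fold change in both mutant genotypes, -0.06 in HT mice (95% interval -0.17 to 0.06) and -0.07 in HM mice (95% interval -0.17 to 0.04), and its highest value was that of WT replicate 1. Without that mouse the values were -0.0098 and -0.02. Cnih3 ranged from 1999 to 2209 normalized counts in WT mice, from 2139 to 2341 in HT mice and from 2091 to 2186 in HM mice. HT mice differed from WT by 0.09 on the log2 scale (95% interval -0.01 to 0.20, unadjusted p = 0.0798, exact permutation p = 0.0857) and HM mice by 0.02 (95% interval -0.08 to 0.12). Without WT replicate 1 the HT value of Cnih3 was 0.12 with an unadjusted p of 0.031 by limma. It was 0.12 with a block for the start of the number in the column name (unadjusted p of 0.0366 by limma). After the GC and length correction it was 0.11 (unadjusted p of 0.048 by limma). The log2 ratio of Cnih2 to Cnih3 within a mouse was 1.42 ± 0.082 for WT, 1.28 ± 0.12 for HT and 1.34 ± 0.041 for HM (SD, n = 4 each), and the genotypes overlapped.

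Between mice of the same genotype, the 4 highest correlations among the 10 genes were between receptor subunits. After the genotype mean of each gene was subtracted, the log2 values of the 45 pairs of genes had Pearson correlations over the 12 mice from -0.466 (Cacng2 and Cnih2) to 0.908 (Gria3 and Gria4), with a median of 0.0262. Gria2 correlated at 0.726 with Gria3, at 0.579 with Gria1 and at 0.542 with Gria4. Among auxiliary genes the highest value was 0.528, for Cacng3 and Cnih3. These 12 points share libraries and scaling, and the values are a description. Among the 13126 genes whose normalized counts averaged 100 or more, the gene most alike in this sense was Golga2 for Gria1 (r = 0.939), Slk for Gria2 (r = 0.975), Capza1 for Gria3 (r = 0.957) and Kcnj3 for Gria4 (r = 0.948). For the auxiliary genes it was Rgsl1 for Cacng2 (r = 0.951), Myo1d for Cacng3 (r = 0.909), Gpr107 for Cacng8 (r = 0.898), Gli1 for Shisa9 (r = 0.906), Itm2a for Cnih2 (r = 0.938) and Txndc17 for Cnih3 (r = 0.975), each the highest of 13126 values and so in part a product of the search.

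Other genes of the AMPA receptor were taken from 4 lists of 35 genes, all of which passed the filter on low values, and none passed after adjustment. For HT against WT, 6 of 35 were higher and 0 lower at an unadjusted p under 0.05, with a median log2 fold change of 0.004. For HM against WT, 7 of 35 were higher and 0 lower, with a median of 0.04. The shares of all genes tested are those given above. For HM against HT, 2 were higher (Shisa7 and Shisa8) and 1 lower (Vwc2l).

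Among the 10 other auxiliary subunits, 3 were higher in HT mice and 3 in HM mice without adjustment, beside 3.16% and 3.93% of all genes tested. Gsg1l, whose product is an auxiliary subunit that reduces AMPA receptor current, had log2 fold changes of 0.11 ± 0.05 in HT and 0.11 ± 0.04 in HM mice (± SE). Cacng4, a TARP gene, had 0.12 ± 0.05 and 0.18 ± 0.07. Shisa6, a relative of Shisa9, had 0.19 ± 0.08 in HT mice, and in HM mice 0.14 ± 0.07, which did not pass without adjustment. Shisa8, at 107 ± 22.7 normalized counts in WT mice, had 0.44 ± 0.16 in HM mice and -0.30 ± 0.23 in HT mice, of which only the first passed without adjustment, and HM and HT mice differed by 0.73 ± 0.23 (unadjusted p = 0.00658, adjusted p = 1.0, exact permutation p = 0.0857). That order, HM above WT above HT, was also the order of the genotype means of the olfactory bulb list (0.56, -0.129 and -0.431), and its part in the difference of Shisa8 was not tested. Most of these calls were lost when any 1 of several mice was left out. That of Gsg1l in HT mice was lost without WT replicate 1 or 4 or HT replicate 3 or 4 (log2 fold changes 0.09 to 0.11). That of Cacng4 in HT mice was lost without WT replicate 1, 2 or 3 or HT replicate 3 or 4 (0.10 to 0.12). In HM mice that of Cacng4 was lost without WT replicate 3 or HM replicate 1 or 3 (0.14 to 0.16). That of Shisa6 in HT mice was lost without WT replicate 1 or 4 or HT replicate 2 or 4, with values down to 0.12 without WT replicate 1 or HT replicate 4. Shisa6 in HM mice gained a call without WT replicate 2 or HM replicate 3 (0.18 each). Its HM value fell to 0.07 without WT replicate 1 and to 0.10 without HM replicate 1. That of Shisa8 in HM mice was lost without WT replicate 2 or 3 or HM replicate 4 (0.36 to 0.38). The HT value of Shisa8 was -0.46 without HT replicate 1 and -0.11 without HT replicate 2. It was -0.15 with a block for the start of the number in the column name. The call of Gsg1l in HM mice held with any 1 mouse left out. Of the 7 genes of receptor assembly and RNA editing, 0 passed without adjustment in HT or HM mice.

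Of the 9 anchoring and trafficking genes, 2 were higher in HT mice and 3 in HM mice without adjustment, beside 3.16% and 3.93% of all genes tested. Nsf, an ATPase of membrane fusion that binds GluA2, had log2 fold changes of 0.09 ± 0.04 in HT and 0.08 ± 0.03 in HM mice (± SE), Akap5, a scaffold for kinases and phosphatases at the receptor, had 0.16 ± 0.06 and 0.13 ± 0.05, and Grip1, a PDZ scaffold of GluA2, had 0.14 ± 0.05 in HM mice and 0.05 ± 0.06 in HT mice. The calls of Nsf were lost without WT replicate 4 or HT replicate 3 or 4 in HT mice (0.07 to 0.08), and without WT replicate 4 or HM replicate 2 in HM mice (0.07 to 0.08). That of Akap5 was lost without HT replicate 1 in HT mice, where its value was 0.13, and without WT replicate 1 or 4 or HM replicate 1 or 2 in HM mice. Without WT replicate 1, Akap5 was at 0.10 in HT mice, where the call held, and at 0.07 in HM mice. That of Grip1 in HM mice was lost without WT replicate 1 or 3 or HM replicate 1, with log2 fold changes of 0.12 to 0.14. It was also lost with the labels' replicate number as a block (0.14, unadjusted p of 0.0551 by limma). The same block ended the call of Nsf in HT mice (0.09, unadjusted p of 0.0686 by limma). Of the 9 extracellular partners, Nptxr, the neuronal pentraxin receptor that clusters AMPA receptors, was the 1 gene higher in both mutant genotypes without adjustment. It had a mean of 24662 normalized counts in WT mice, 26514 in HT mice and 26295 in HM mice, and neither mutant genotype overlapped WT mice. Of all genes tested, 1.82% were higher without overlap in HT mice and 2.41% in HM mice. HT mice differed from WT by 0.10 on the log2 scale (SE 0.03, unadjusted p = 0.00871, adjusted p = 0.768, exact permutation p = 0.0286) and HM mice by 0.09 (SE 0.03, unadjusted p = 0.00893, adjusted p = 0.655, exact permutation p = 0.0286). Both Nptxr calls held with any 1 mouse left out. A block for the start of the number in the column name ended the call of Nptxr in HM mice (0.08, unadjusted p of 0.0801 by limma). It also ended those of Gsg1l (log2 fold change 0.10), Cacng4 (0.12), Shisa6 (0.12) and Akap5 (0.09) in HT mice. In HM mice it ended those of Gsg1l (0.09), Cacng4 (0.19), Nsf (0.07), Akap5 (0.14) and Grip1 (0.13). A variance prior with no trend ended the calls of Gsg1l, Shisa6, Nsf and Akap5 in HT mice and of Nsf and Akap5 in HM mice, quantile normalization that of Akap5 in HM mice, and a single fit of all 12 mice those of Cacng4 in HT mice and Shisa8 in HM mice.

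**Figure D5:**
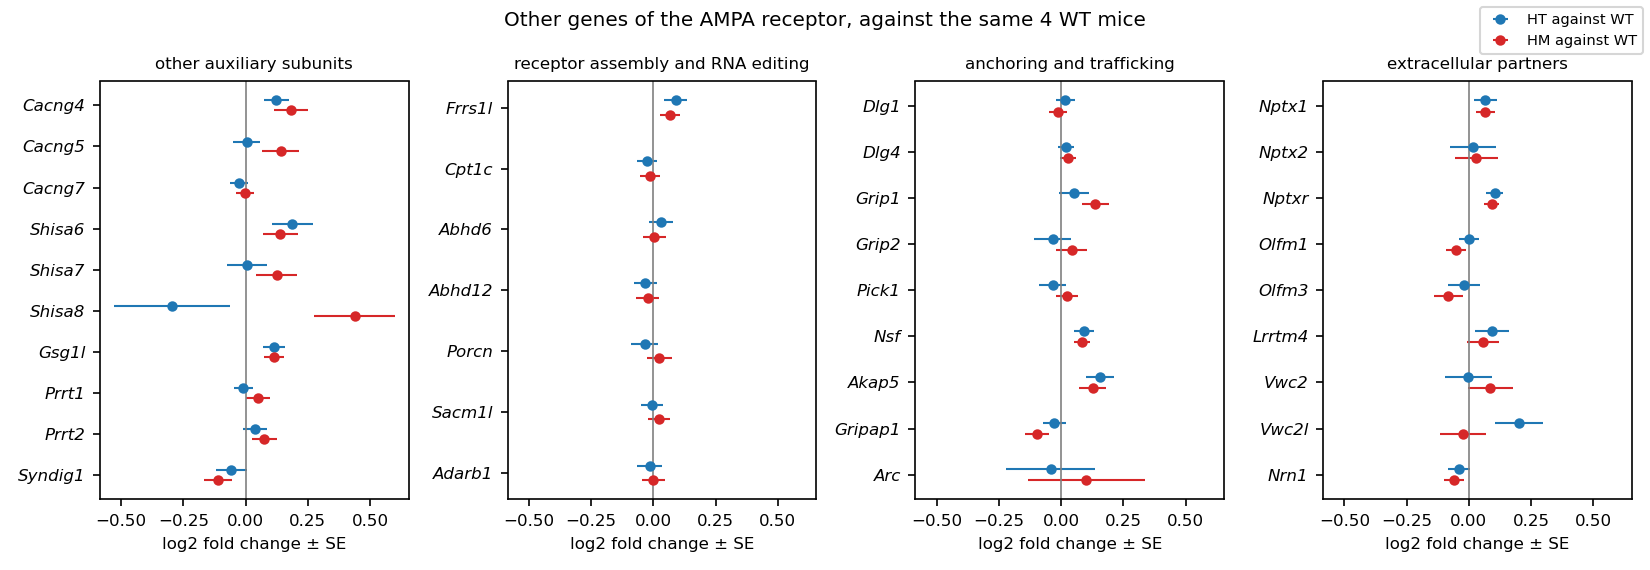
Log2 fold changes (points) ± SE (lines) of 35 other genes of the AMPA receptor in 4 lists, for HT (blue) and HM (red) against the same 4 WT mice. Most lie near 0, Nsf, Akap5, Nptxr, Gsg1l and Cacng4 are above 0 in both, and Shisa8 has opposite signs.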

How the data were processed

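Brain RNA-seq of 12 mice was analysed. The authors quantified reads with Salmon 1.1.0 against GRCm38 with correction for GC content, summed them to genes with tximport and normalized them with DESeq2 1.30.1, and deposited the normalized counts, a signal on a linear scale. It is not stated whether the counts were scaled for transcript length. Reads could not be recovered from them, so count models were not run and limma, the planned test for normalized values, was used. Symbols were found for 19758 of 19775 identifiers in GENCODE M21.

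The tests were run in R 4.3.3 with limma 3.58.1, with eBayes and a mean-dependent variance prior, after a pseudocount of 1 and a log2 transform, on genes averaging 10 or more normalized counts in the 8 mice, and by two-sided exact permutation. Groups came from the sample labels, and homozygous mice are columns with the prefix KO. The limma step was tested on simulated data. The 10 genes, the partner and marker lists, tests and alternatives were chosen with earlier results of these data known, and some of the genes are among those the study listed from the same mice, so none is independent evidence. Named genes were the 10, Slc6a20a, each partner gene with an unadjusted p under 0.05 against WT, and the most alike gene of each of the 10. Shisa7, Vwc2l and Adarb1 and single marker genes were named after their values were seen. The mice are separate animals. Figures used matplotlib 3.10.9.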

Additional observations from a re-analysis of the deposited data

Results flagged for a closer look

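In WT mice, Cacng3 had 1 mouse far from the other 3: replicate 3, at 2573.66 normalized counts, was beyond the Dixon limit for 4 samples. It was the 1 such case among 57 groups (19 genes in 3 genotypes), and chance alone gives about 1 in 20. Of 46 genes looked at (the 10, the 35 others of the receptor and Slc6a20a), 5 differed between HM and HT mice in the test of that difference without adjustment. Of all genes tested, 2.11% were higher and 1.62% lower in HM mice by the same rule. Cacng8 was 0.1591 (log2) higher in HM mice, Shisa8 was 0.7335 higher, Shisa7 was 0.1207 higher and Vwc2l was different by -0.2238. Slc6a20a, the targeted gene, was different by -2.4085, the 1 of the 5 that also passed with adjustment by limma (adjusted p = 1.79e-06).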

How the results depend on the processing

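Of 510 recomputed values of the 10 genes, 455 kept their direction and their side of an unadjusted p of 0.05, 16 lost and 4 gained the call, and 35 changed sign. Except where a construction is given here, the cause was not tested. With the labels' replicate number as a replicate block, 2 of the 10 genes instead of 3 were called in HT against WT, 3 in HM against WT and 1 in HM against HT, and adjusted calls over all genes in HM against WT went from 2 to 1. Same-numbered mice correlated at -0.171 to 0.0885, so the numbers do not pair mice. With a variance prior that has no trend, adjusted calls over all genes went from 1 to 0 in HT against WT and from 2 to 1 in HM against WT. In HM against HT they went from 1 to 2 with no filter, and to 3 when mice with a like start of the number in the column name formed a block. That block leaves few mice to set a fold change: none of the 10 genes was called in HM against HT (0, from 1), and signs changed for Gria2 (-0.0034) and Gria4 (-0.0055) in HT against WT, Shisa9 (-0.019) in HM against WT, and Gria2 (0.0038), Cacng2 (-0.0459) and Shisa9 (0.0372) in HM against HT. Quantile normalization changed the sign of Gria4 in HT against WT (-0.0032) and of Gria2 in HM against HT (0.0036). The GC and length correction did so for Gria4 (-0.0127), Cacng2 (-0.0002) and Cnih2 (0.003) in HT against WT and Cacng3 (-0.0052) in HM against HT, where it also left 0 genes without overlap instead of 1. With 1 mouse left out, adjusted calls over all genes ran from 1 to 5 in HT against WT (5 without HT replicate 3, 2 without WT replicate 2) and from 1 to 7 in HM against HT (7 without HM replicate 2 or 3, 3 without HT replicate 3 or 4, 2 without HT replicate 2). Of the 10 genes, 1 to 3 were called without adjustment in HT against WT (1 without HT replicate 1), and 1 to 2 did not overlap in HT against WT (2 without WT replicate 3 or HT replicate 2 or 4) and in HM against HT (2 without HT replicate 2). Fold changes that crossed 0 ran, in HT against WT, from -0.0188 to 0.0325 for Gria4 and -0.001 to 0.0509 for Cacng2. In HM against WT they ran from -0.0071 to 0.0442 for Gria4 and -0.0002 to 0.0478 for Cnih3. In HM against HT they ran from -0.0255 to 0.0195 for Gria1, -0.0355 to 0.0207 for Gria2, -0.0096 to 0.0466 for Gria3, -0.0132 to 0.0336 for Gria4, -0.0203 to 0.0253 for Cacng3, -0.1774 to 0.006 for Shisa9 and -0.03 to 0.0258 for Cnih2. Shisa9 in HT against WT had an unadjusted p of at most 0.0469 by limma under every alternative run. A pseudocount of 0.1 and a filter of 10 in every mouse changed no call of the 10 genes. Normalization by TMM or new size factors and count models were not run, since the values are already normalized.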
